A study of Mus musculus with 6 samples.

Results

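The core circadian clock of the retina was followed through 10 genes, Arntl, Clock, Npas2, Per1, Per2, Per3, Cry1, Cry2, Nr1d1 and Nr1d2, in total RNA of whole retina from a pair of inbred mouse strains. The genes were taken by symbol from a count table of 30510 features, in which each of the 10 had 1 row. The list is of core clock genes and was chosen with earlier results of these data known. The strains were C57BL/6J (B6), the source of the mouse reference genome, and DBA/2J (D2), both labelled wild type and aged 60 to 100 days, with 3 libraries each and no treatment. Retinas of both eyes were taken between 10 in the morning and noon, and the RNA integrity number was 9.1 to 9.5. The labels give neither the light schedule nor the exact hour of each animal. They also do not say that replicates are separate mice, and the p-values below then cover only library-to-library spread, part of which may be technical. With 1 sampling window, a shift in the timing of a rhythm and a change in its mean level cannot be told apart. In bulk tissue, fewer cells of a type and less RNA per cell cannot be told apart either.

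The mammalian clock is a transcriptional feedback loop. BMAL1, the product of Arntl, pairs with CLOCK or its relative NPAS2, and the pair activates genes that carry an E-box, a short DNA element, in their regulatory sequence. Among these are the Period and Cryptochrome genes, whose proteins return to the nucleus and inhibit the pair, and the nuclear receptor genes Nr1d1 and Nr1d2, which encode REV-ERB alpha and beta. The REV-ERB proteins repress Arntl through a different element, the RORE, on which the ROR receptors act as activators. The retina keeps its own clock, which continues in isolated tissue and is set by light, and which is known to pace dopamine release and the sensitivity of the rod and cone pathways.

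Promoter windows of 9 members are shown in part, because the loop described above is written in these elements. They are the 250 bases before each RefSeq start site (build GRCm38.p6, the assembly called mm10), read 5′ to 3′ on the strand of the gene, and no window of Per2 was used. Capitals mark matches on either strand to the E-box CACGTG, to the D-box TTANGTAA, which binds the PAR bZIP factors, or to TNGGTCA. The last is a loose form of the RORE core, with any base allowed at N. The windows with a match are given here, with 1 of the 2 overlapping windows of Arntl.
Arntl, chr7:113207215-113207464, + strand: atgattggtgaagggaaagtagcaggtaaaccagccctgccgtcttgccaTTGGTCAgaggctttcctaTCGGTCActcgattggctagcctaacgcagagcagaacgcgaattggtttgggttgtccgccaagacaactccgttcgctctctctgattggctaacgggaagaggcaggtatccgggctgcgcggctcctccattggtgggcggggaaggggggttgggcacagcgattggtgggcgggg
Cry1, chr10:85185055-85185304, - strand: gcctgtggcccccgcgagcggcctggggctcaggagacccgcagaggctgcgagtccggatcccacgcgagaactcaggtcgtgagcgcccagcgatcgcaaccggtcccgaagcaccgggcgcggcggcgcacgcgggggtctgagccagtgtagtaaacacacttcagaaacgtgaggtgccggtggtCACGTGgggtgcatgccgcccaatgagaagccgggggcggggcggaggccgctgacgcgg
Cry2, chr2:92434070-92434319, - strand: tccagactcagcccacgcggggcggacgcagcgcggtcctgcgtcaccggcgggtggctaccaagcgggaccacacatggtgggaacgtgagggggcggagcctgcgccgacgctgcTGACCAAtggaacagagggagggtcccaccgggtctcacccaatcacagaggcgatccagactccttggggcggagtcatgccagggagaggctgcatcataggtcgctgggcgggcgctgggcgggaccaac
Per1, chr11:69098699-69098948, + strand: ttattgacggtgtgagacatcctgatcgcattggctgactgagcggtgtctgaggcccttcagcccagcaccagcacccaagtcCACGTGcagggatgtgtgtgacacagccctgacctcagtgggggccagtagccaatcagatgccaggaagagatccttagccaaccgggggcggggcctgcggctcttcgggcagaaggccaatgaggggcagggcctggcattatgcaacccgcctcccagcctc
Per3, chr4:151044666-151044915, - strand: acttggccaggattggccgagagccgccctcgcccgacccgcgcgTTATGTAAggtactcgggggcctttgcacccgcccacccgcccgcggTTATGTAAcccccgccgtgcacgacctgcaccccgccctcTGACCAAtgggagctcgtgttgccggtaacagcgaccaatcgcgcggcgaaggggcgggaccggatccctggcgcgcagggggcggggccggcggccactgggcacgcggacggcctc
The E-box stood in 2 of the 13 windows of the members, those of Cry1 and Per1, and in 6.02% of all 32851 windows of the reference table. The loose RORE pattern stood in 4 of the 13, in Arntl, Cry2 and Per3, and in 9.19% of all windows. Of these 4, 2 are the overlapping Arntl windows, which hold the same 2 matches. The matches of the members read TTGGTCA, its reverse complement TGACCAA, or TCGGTCA, and none had A or G at N. They are matches to the loose pattern only, and none is shown to be the RORE through which the REV-ERB proteins act on Arntl. The D-box occurred in Per3 alone of the members, in 2 copies, and in 2.06% of all windows, and the cyclic AMP response element TGACGTCA in none of the 13 and in 1.55% of all windows. No match overlapped a match to another of these motifs. The Per1 window lies inside the annotated Per1 gene, which starts further upstream in GENCODE M21, and all but 1 of its bases are intronic there. A match is a run of letters and not a shown binding site, and a window without one says nothing of sites elsewhere.

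The libraries held 29417002 to 43719666 counts, and the totals of the strains overlapped. All 20 markers of rods, cones, bipolar, amacrine, horizontal, ganglion and Müller cells had counts in every library. Markers of tissue around the retina varied between libraries: the 4 pigment epithelium markers summed to 47.1 to 136 CPM (counts scaled to library size) in B6 and 32.4 to 114 CPM in D2, the 3 lens markers to 0.984 to 21.0 CPM and 2.24 to 8.67 CPM, and the 3 erythrocyte markers to 53.0 to 81.9 CPM and 98.3 to 193 CPM. The 2 cornea markers summed to 1.67 to 4.57 CPM in B6 and 1.67 to 3.07 CPM in D2, and the 3 muscle markers to 2.91 to 3.67 CPM and 3.67 to 4.56 CPM, with Myh4 at 0 in 4 libraries. The summed retinal markers also differed: those of rods, cones, horizontal and ganglion cells were lower in every D2 library, and those of amacrine cells higher. Rod markers summed to 44895 to 45534 CPM in B6 and 38982 to 40276 CPM in D2. Ganglion cell markers summed to 114 to 125 CPM and 103 to 106 CPM, and amacrine markers to 430 to 434 CPM and 448 to 452 CPM. The sums of bipolar and Müller cell markers overlapped. The part of all these markers in the differences below was not tested.

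All 10 clock genes were expressed and passed the filter on low counts. Levels between genes are compared per length, as CPM per kilobase of annotated exon. On this scale Nr1d2 was the most abundant, at 60.1 ± 3.48 in B6 and 64.1 ± 2.13 in D2 (SD, n = 3), above 97.1% of the tested genes with a length. Its paralog Nr1d1 followed at 27.7 ± 0.426 and 27.3 ± 1.33, a mean 2.26-fold below Nr1d2. Next came Cry1, with library values of 18.0 to 21.6, and Clock, with 14.6 to 15.3. Arntl (12.2 to 14.3), Cry2 (10.3 to 12.2) and Per3 (10.4 to 11.6) formed a run in which each gene overlapped the next over the 6 libraries. Per1 lay below them at 7.30 to 9.74, and Per2 a mean 2.42-fold below Per1 at 2.97 to 4.09. Npas2 was the rarest by a wide gap, at 0.321 ± 0.0367 in B6 and 0.494 ± 0.0232 in D2, 8.76-fold below Per2 and above only 13.0% of genes. The libraries of neighbours in this order did not overlap except for Arntl with Cry2 and Cry2 with Per3.

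**Figure D1:**
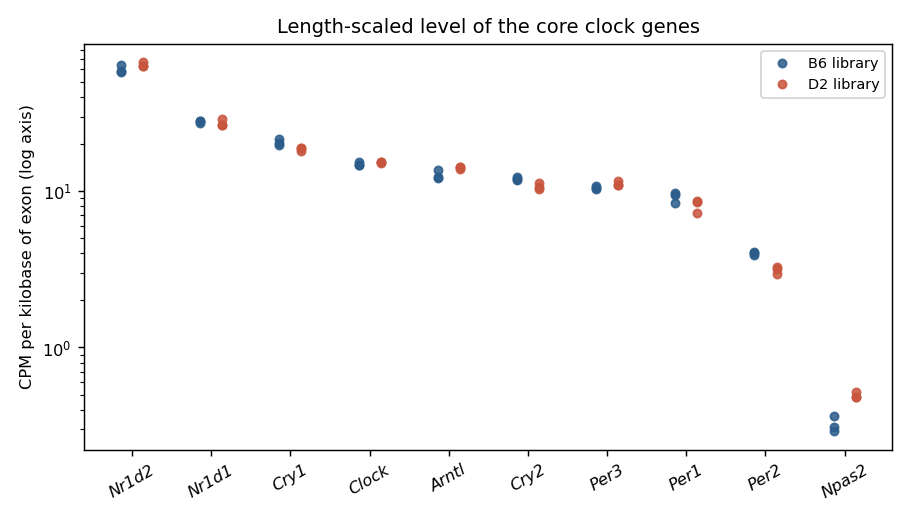
CPM per kilobase of annotated exon (log axis) of the 10 core clock genes in each of the 6 libraries, B6 on the left and D2 on the right of each gene, in falling order of the mean. Nr1d2 stands at the top at 57.6 to 66.6 and Npas2 at the bottom at 0.292 to 0.521.

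The comparison of D2 with B6 asked how the loop differs between the strains at this hour. The repressor genes Per2, Cry1 and Cry2 fell in D2, and the activator genes Arntl and Npas2 rose. The differences were small apart from those of Npas2, which was 1.53-fold higher, and Per2, which was 1.28-fold lower. Clock, Per1, Per3, Nr1d1 and Nr1d2 did not pass the test (edgeR's quasi-likelihood test, Benjamini-Hochberg adjusted p under 0.05 over 18588 genes). The 5 called members are 50% of the list, where 29.7% of all tested genes were called, 14.5% higher and 15.3% lower in D2, and the members' share rests on 5 genes. Their median absolute log2 fold change of 0.15 stood beside 0.13 over all genes, and the signed median was 0.0079 beside 0.0046. In 6 of the 10 genes the libraries of the strains did not overlap, 3 higher and 3 lower in D2, where this held for 42.3% of all tested genes (21.4% higher and 20.9% lower).

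**Figure D2:**
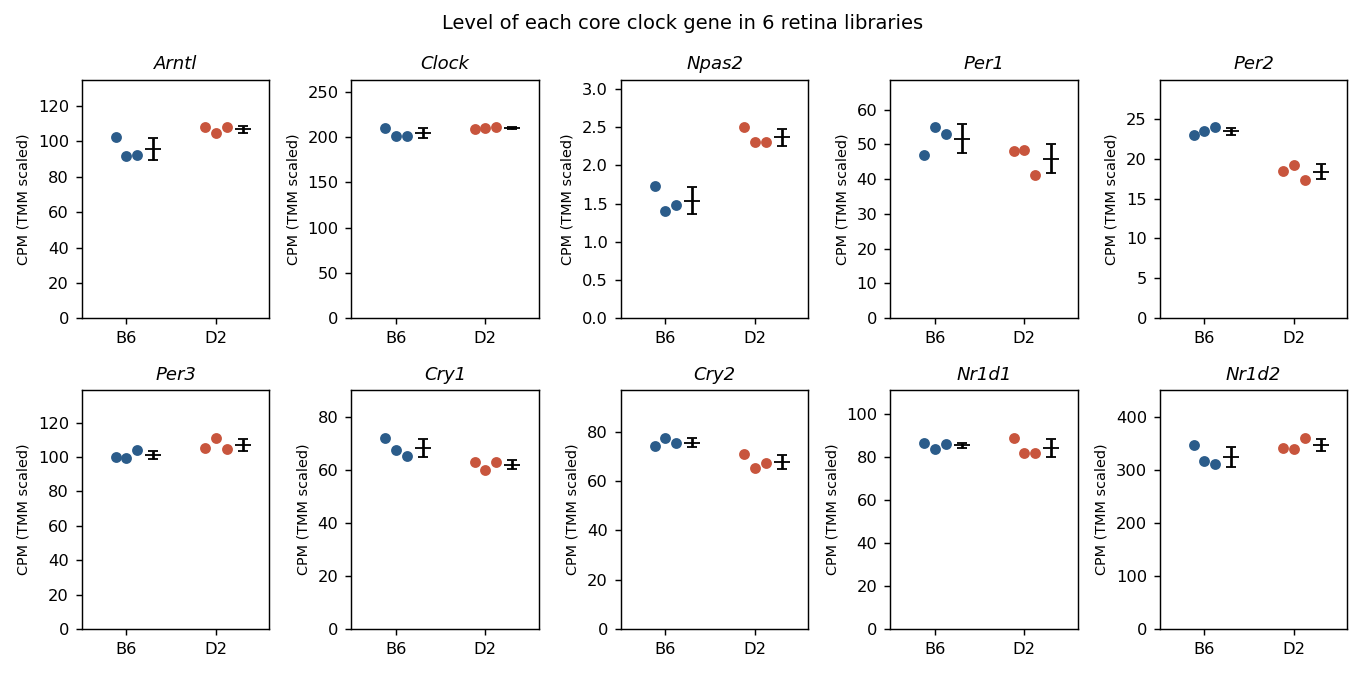
CPM scaled by TMM factors in each library of B6 and D2 for the 10 genes, each axis starting at 0, with black bars for the mean and SD of 3 libraries. Per2, Cry1 and Cry2 lie lower and Arntl, Npas2 and Per3 higher in all 3 D2 libraries, and the strains overlap in the other 4 genes.

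Among the activators, Arntl (chromosome 7, 113207465 to 113314126, mm10), whose product BMAL1 is the partner that the loop cannot replace, had 102.8, 91.8 and 92.5 CPM in B6 replicates 1, 2 and 3 and 107.9, 104.7 and 107.9 CPM in D2. All D2 libraries lay above all B6 libraries, with B6 replicate 1 nearest to them. The increase was 11.6%, a log2 fold change of 0.16 ± 0.04 (SE, adjusted p = 0.0123). It lost its call without B6 replicate 2 (log2 fold change 0.12, adjusted p = 0.0881). Npas2 (chromosome 1, 39193731 to 39363236), the forebrain relative of Clock, was counted 75, 58 and 46 times in B6 and 72, 75 and 80 times in D2. On the CPM scale these were 1.73, 1.40 and 1.48 in B6 and 2.50, 2.31 and 2.30 in D2, so that each D2 library was above each B6 library. Its log2 fold change was 0.62 ± 0.16 (adjusted p = 0.00765), with the widest 95% interval of the 10 genes, 0.28 to 0.95. Clock itself (chromosome 5, 76209868 to 76304792), which encodes the usual partner of BMAL1, had 210.3, 201.0 and 201.2 CPM in B6 and 209.1, 209.7 and 210.5 CPM in D2. B6 replicate 1 lay within the D2 range and the other B6 libraries below it. Its log2 fold change of 0.04 ± 0.03 had a 95% interval of -0.03 to 0.11 (adjusted p = 0.428). The summed share of the 3 activator genes was 293 to 311 CPM in B6 and 313 to 323 CPM in D2.

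Among the Period genes, which encode the inhibitors that accumulate and decay within each cycle, Per2 had the lowest adjusted p of the 10. Per2 (chromosome 1, 91415982 to 91459324) had 23.0, 23.4 and 23.9 CPM in B6 and 18.5, 19.2 and 17.4 CPM in D2. The gap between the strains was wider than the spread within either. Per2 fell by 21.7%, a log2 fold change of -0.35 ± 0.05 (adjusted p = 0.000112), and was called when any 1 library was left out. Per1 (chromosome 11, 69095217 to 69109960), the Period gene that light induces most directly, had 46.9, 54.9 and 53.1 CPM in B6 and 48.1, 48.5 and 41.1 CPM in D2. B6 replicate 1 lay below D2 replicates 1 and 2, and D2 replicate 3 was the lowest of all. Its log2 fold change of -0.17 ± 0.07 did not pass (adjusted p = 0.0656), and it passed without B6 replicate 1 (-0.24, adjusted p = 0.0118), D2 replicate 1 (-0.20, adjusted p = 0.0495) or D2 replicate 2 (-0.21, adjusted p = 0.0446). Without D2 replicate 3 it moved the other way, to -0.095 (adjusted p = 0.296), and without B6 replicate 2 or 3 to -0.13 (adjusted p = 0.234) and -0.15 (adjusted p = 0.143). Per3 (chromosome 4, 151003652 to 151044665), the most abundant Period gene per length and the one not needed for rhythm in mice, had 100.3, 99.6 and 104.1 CPM in B6 and 105.3, 111.0 and 104.7 CPM in D2. The strains did not overlap, but the means, 101.3 ± 2.40 and 107.0 ± 3.49 CPM (SD, n = 3), differed by less than the range of the D2 libraries (log2 fold change 0.08 ± 0.04, 95% interval 0.0015 to 0.16, adjusted p = 0.120). The summed share of the 3 genes overlapped between the strains, at 168 to 180 CPM in B6 and 165 to 182 CPM in D2.

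Both Cryptochrome genes, which encode the stronger inhibitors of the BMAL1 pair, fell in D2. Cry1 (chromosome 10, 85131700 to 85185064) had 72.0, 67.4 and 65.4 CPM in B6 and 62.9, 60.1 and 63.0 CPM in D2. Every D2 library was below every B6 library, and B6 replicate 1 was the highest. Cry1 fell by 9.28%, a log2 fold change of -0.14 ± 0.04 (adjusted p = 0.0217), which did not pass without B6 replicate 1 (-0.099, adjusted p = 0.118) or D2 replicate 2 (-0.12, adjusted p = 0.0849). Cry2 (chromosome 2, 92403646 to 92434043) had 74.0, 77.4 and 75.4 CPM in B6 and 70.9, 65.3 and 67.1 CPM in D2. These also did not overlap, and Cry2 fell by 10.4% (log2 fold change -0.16 ± 0.04, adjusted p = 0.00711). On the opposite strand D930015M05Rik overlaps 4.67% of the exon bases of Cry2. Together the 2 genes took 140 to 146 CPM of the B6 libraries and 128 to 131 CPM of the D2 libraries.

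Of the REV-ERB receptors, which feed back on Arntl, neither passed. Nr1d1 (chromosome 11, 98767932 to 98775333) had 86.3, 83.9 and 85.9 CPM in B6 and 88.8, 81.6 and 81.7 CPM in D2. The D2 libraries lay on both sides of the B6 range, and the log2 fold change was -0.02 ± 0.04 (95% interval -0.11 to 0.06, adjusted p = 0.711). The 3′ end of Nr1d1 shares 263 exon bases (8.55% of its exons) with Thra, a thyroid hormone receptor gene on the opposite strand. No source used here states how strand was treated in counting, so reads of this stretch could not be assigned to 1 gene. Thra had a log2 fold change of -0.10 ± 0.04 (adjusted p = 0.103). Nr1d2 (chromosome 14, 18204054 to 18239127) had 346.3, 316.9 and 311.3 CPM in B6 and 340.9, 339.3 and 360.0 CPM in D2. B6 replicate 1 overlapped the D2 libraries, and without it the log2 fold change went from 0.09 ± 0.04 (adjusted p = 0.126) to 0.14 (adjusted p = 0.0186). Of the 31-base words of Nr1d2, 9.51% also occurred in transcripts of other genes. The share was 7.85% in Nr1d1, 4.11% in Cry2, at most 0.652% in Per3, Arntl and Clock, and 0 in Npas2, Per1, Per2 and Cry1.

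Ratios of counts between paired genes within a library do not depend on the scaling between libraries. They were compared for 6 pairs by an exact two-sided permutation test of 3 against 3 libraries, which cannot give a p below 0.1. Per3 stood against Per2 at a log2 ratio of 2.11 ± 0.0202 in B6 and 2.54 ± 0.0432 in D2 (SD, n = 3), a difference of 0.43 that all 3 D2 libraries shared (exact p = 0.1, adjusted over the 6 pairs 0.15). The strains overlapped in the summed Period share but not in this ratio. Per1 against Per2 was also higher in every D2 library, by 0.18 (exact p = 0.1, adjusted 0.15). Npas2 against Clock was higher by 0.59, from -7.06 ± 0.126 to -6.47 ± 0.0708 (exact p = 0.1, adjusted 0.15). Arntl against Nr1d1, genes that peak in opposite parts of the cycle, was higher by 0.18, from 0.16 ± 0.0781 to 0.35 ± 0.0609 (exact p = 0.1, adjusted 0.15). The strains overlapped for Cry1 against Cry2 (difference 0.02, exact p = 0.8, adjusted 0.8) and for Nr1d1 against Nr1d2 (difference -0.12, exact p = 0.2, adjusted 0.24). Since no p below 0.1 was possible, none of the 6 differences passed a threshold of 0.05.

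**Figure D3:**
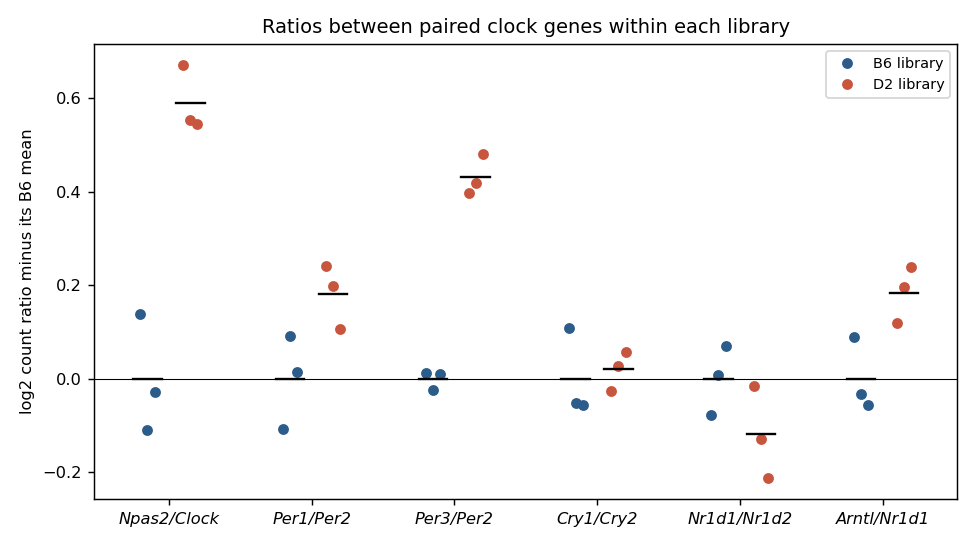
Log2 ratio of counts of paired genes in each library, minus the B6 mean of that ratio, with bars for strain means. The D2 libraries of Npas2/Clock, Per1/Per2, Per3/Per2 and Arntl/Nr1d1 lie above all B6 libraries, and those of Cry1/Cry2 and Nr1d1/Nr1d2 overlap them.

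Since tissue was taken over a window of the morning, the genes were also followed library by library. Within a strain the members stayed close to their mean: the largest deviations in log2 CPM were 0.17 for Npas2 in B6 replicate 1 and -0.15 for Per1 in D2 replicate 3. The median absolute deviation of the members was 0.061 in B6 replicate 1 and 0.023 to 0.043 in the other libraries, beside 0.036 to 0.045 for genes in the same range of levels. In B6 replicate 1, Arntl (0.11), Npas2 (0.17), Cry1 (0.08) and Nr1d2 (0.09) stood above the B6 mean and Per1 (-0.13) below it. The narrowest range over the 3 libraries of a strain was that of Nr1d1 in B6 (0.04) and of Clock in D2 (0.0093), where Clock had 0.07 in B6 and Nr1d1 0.12 in D2. Per1 was lowest in B6 replicate 1 and D2 replicate 3. Of the 13 tested immediate early genes, 8 were lowest within B6 in replicate 1 and 7 within D2 in replicate 3, and 5 were lowest in both, Dusp1, Egr1, Fos, Nr4a1 and Nr4a3. Fos deviated by -0.16 and -0.28 in these libraries and Egr1 by -0.16 and -0.69, whereas Ier2 was highest in B6 replicate 1 and Junb, Btg2 and Arc were lowest in B6 replicate 3. The pigment epithelium gene Rpe65 was also lowest in B6 replicate 1 (-0.97) and D2 replicate 3 (-0.78), and the lens gene Cryaa was lowest in B6 replicate 1 (-3.36) and, within D2, in replicate 1 (-1.17). Their part in the Per1 values was not tested. The members were chosen as a list, but B6 replicate 1 and D2 replicate 3 were singled out because Per1 was lowest in them. In the other libraries, 1 and 4 of the 13 were lowest in B6 replicates 2 and 3, and 2 and 4 in D2 replicates 1 and 2. The share over all genes was not computed, and no test was made of these deviations.

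**Figure D4:**
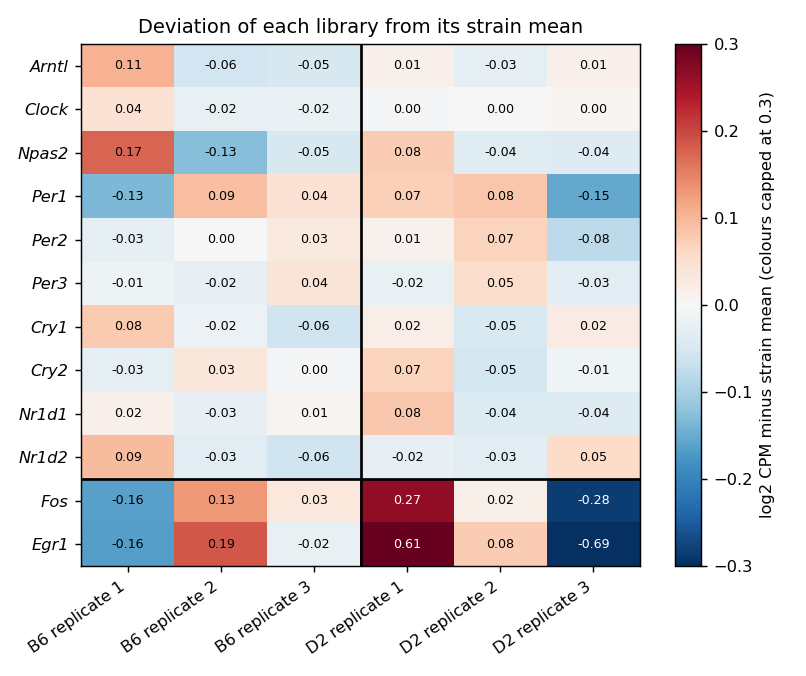
Log2 CPM of each library minus the mean of its strain, for the 10 core clock genes and, below the line, the immediate early genes Fos and Egr1, with values printed in the cells and colours capped at 0.3. B6 replicate 1 shows the widest spread of clock genes, from -0.13 for Per1 to 0.17 for Npas2.

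Immediate early genes, which neurons switch on within minutes of light or other stimulation, were examined because Per1 and Per2 also answer to light. Of 14 listed genes 13 were tested, Egr3 being below the filter, and 8 of the 13 fell in D2 and 0 rose, beside 15.3% of all genes that fell. The list had a median log2 fold change of -0.38, beside 0.0046 over all genes. Fos fell from 39.6 ± 4.03 to 13.1 ± 2.47 CPM (SD, n = 3), a log2 fold change of -1.61 ± 0.10 (adjusted p = 1.13e-08). Egr1 fell from 20.3 ± 2.52 to 5.08 ± 2.17 CPM (-2.03 ± 0.19, adjusted p = 7.25e-07), and Nr4a1, an orphan receptor of the same response, from 21.5 ± 3.10 to 9.35 ± 1.22 CPM (-1.20 ± 0.11). The falls of Arc (-1.41 ± 0.22), Nr4a3 (-1.07 ± 0.28), the phosphatase Dusp1 (-0.79 ± 0.12), Btg2 (-0.29 ± 0.05) and Junb (-0.25 ± 0.06) were smaller than that of Fos on the log2 scale. Jun, whose product pairs with that of Fos, did not pass (-0.07 ± 0.06, adjusted p = 0.405). The log2 fold changes of this list ran from -2.03 (Egr1) to -0.07 (Jun). Those of Per1 (-0.17) and Per2 (-0.35) lay within this wide range, as did those of Cry1 (-0.14) and Cry2 (-0.16). The range therefore does not set the Period genes apart. The part of the stimulus response in the Period values was not tested.

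Of the 28 other clock genes listed by role, 2 rose, 7 fell and 19 did not pass. The 9 called genes are 32.1% of the list, near the 29.7% of all genes, and the list's median log2 fold change was -0.00033. Without D2 replicate 3 the count was 5, with 1 higher and 4 lower. Of the 4 genes listed as repressors of E-box activation, 2 rose, 1 fell and 1 did not pass. Bhlhe41 rose from 89.7 ± 2.71 to 115 ± 2.95 CPM (log2 fold change 0.36 ± 0.04, adjusted p = 2.04e-06) and Bhlhe40 rose slightly (0.14 ± 0.05, adjusted p = 0.0320). Ciart, which encodes CHRONO, fell (-0.30 ± 0.06, adjusted p = 0.00215). Of the exon bases of Bhlhe41, 19.0% overlap another annotated gene. Of the ROR receptors that oppose the REV-ERB proteins, Rora fell from 332 ± 14.7 to 303 ± 4.14 CPM (-0.13 ± 0.04, adjusted p = 0.0168). Rorb, the receptor known for its role in photoreceptor development, did not pass (624 ± 43.0 and 613 ± 6.96 CPM, adjusted p = 0.725). Arntl2, the paralog of Arntl, was counted 85 to 110 times in B6 libraries and 35 to 47 times in those of D2 and fell (-0.91 ± 0.18, adjusted p = 0.00151), opposite in sign to Arntl. Of the proteins that set the stability of PER and CRY, the ubiquitin ligase subunit gene Btrc fell from 145 ± 2.29 to 120 ± 2.38 CPM (-0.28 ± 0.03, adjusted p = 1.5e-05), and the kinase gene Gsk3b (-0.14 ± 0.04) and the deubiquitinase gene Usp2 (-0.19 ± 0.05) fell. The casein kinase genes Csnk1d and Csnk1e, whose products phosphorylate PER, had -0.09 ± 0.04 and 0.09 ± 0.04 and did not pass. The D-box factors Dbp, Tef, Hlf and Nfil3, driven by the loop or opposing its outputs, had log2 fold changes of -0.09 to 0.15, and 0 of the 4 passed.

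**Figure D5:**
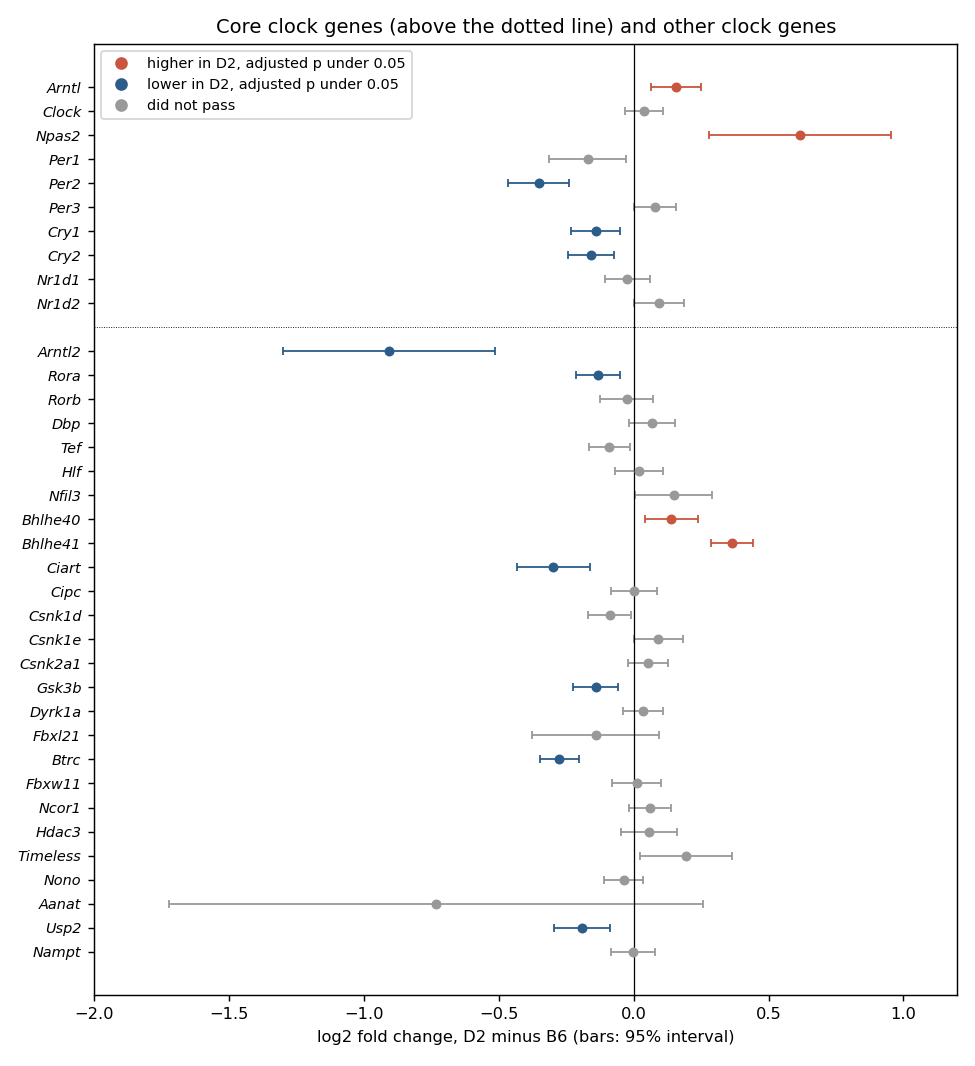
Log2 fold change of D2 minus B6 with 95% intervals for the 10 core clock genes (above the dotted line) and 26 of the other clock genes, coloured by the edgeR call at an adjusted p under 0.05. Of the core genes 2 are higher, 3 lower and 5 did not pass, and of the others shown 2 are higher, 6 lower and 18 did not pass. The other 2 of the 28, 1 lower and 1 that did not pass, are not drawn.

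The authors' deposited table lists all 10 genes with a false discovery rate of their own. It is under 0.05 for 8 of the 10 in the authors' deposited table, where 40.9% of 18100 listed genes are under it, and these 8 hold the 5 genes called here with Per1 (0.00447), Per3 (0.0107) and Nr1d2 (0.00586). In the authors' deposited table Per2 has a rate of 8.05e-11, Clock 0.200 and Nr1d1 0.670. Npas2 is the 1 member of 10 marked as differentially expressed there, where 1665 of the 18100 listed genes are so marked. In the authors' deposited table the scaled score of Clock is 10.98 in B6 and 10.96 in D2, opposite in direction to the CPM given above.

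By the root mean square difference of mean-centred log2 CPM over the 6 libraries, the genes whose pattern was most like that of Per2, among 14450 compared, were Cep63 (0.0233), Hook2 (0.0264) and Zfp14 (0.0299). Each was lower in every D2 library by about the same amount, with log2 fold changes of -0.34, -0.34 and -0.37 beside -0.35 for Per2. The measure is dominated by the difference between the strains and its values are a description of these 6 libraries.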

How the data were processed

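Retinal total RNA of 3 B6 and 3 D2 libraries was prepared with a stranded kit, per the labels. Reads were aligned to mm10, and the tools named are STAR, SAMtools, FastQC and edgeR, per the submitters' processing notes. Their versions, the read counter, the annotation and the strand setting are not stated in the sources used here. The counts per gene were deposited by the authors without normalization. A second deposited table gives strain means as scaled scores and a false discovery rate, an adjusted p-value of the authors whose test is not stated. Both strains were aligned to a B6-derived reference, and the effect of D2 variants was not analysed here.

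Counts were filtered with filterByExpr (18588 of 30510 features), scaled with TMM and tested with edgeR 4.0.16 in R 4.3.3 (quasi-likelihood, strain as the term, D2 minus B6), with Benjamini-Hochberg adjustment over all tested genes. SE is the log2 fold change divided by the root of its F statistic. CPM values use TMM factors, except summed marker and group shares, which use library totals. Within-library values are log2 CPM with a prior count of 2. Gene coordinates, exon lengths and overlaps come from GENCODE M21, and all listed genes matched by symbol. Promoters come from RefSeq (GRCm38.p6). Where a library has no count, levels up to 0.0686 to 0.102 CPM are possible (3 counts, counting error only). Alternatives were DESeq2 1.42.0, limma-voom (limma 3.58.1), other scalings and filters, a replicate block and leaving out each library. On simulated data for this comparison (18588 genes, fewer changes than were called here), 7, 30, 44 and 50 of 50 genes changed by 1.1, 1.2, 1.5 and 2-fold were called, and 14 of 18388 unchanged genes. The members, lists and tests were chosen with earlier results of these data known. All 10 members were named, and of the other lists the called genes (some items are not reported here), the 2 with the highest CPM, and a few by role that were added after their values were seen (Csnk1d, Csnk1e and the D-box factors). Tables used Python 3.11.15, pandas 2.3.3 and scipy 1.17.1.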

Additional observations from a re-analysis of the deposited data

How the results depend on the processing

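The 10 members kept the sign of their log2 fold change in each of the 14 alternatives run. Per2, Cry2 and Npas2 were called in all 14, Arntl in 13 and Cry1 in 12, and Clock, Per3 and Nr1d1 in 0, while Per1 was called in 4 (also without a filter beyond 1 count, adjusted p = 0.0231) and Nr1d2 in 1. The number of members called was 4 to 6 when 1 library was left out, and the same 5 genes were called with each other scaling, DESeq2 and limma-voom. The other clock genes gave 5 to 9 calls when 1 library was left out, the 5 without D2 replicate 3. The immediate early genes gave 8 or 9 calls, and all genes 4502 to 5774, with a median log2 fold change of 0.000028 to 0.0081. Leaving out 1 library moved the difference in log2 ratio to 0.41 to 0.45 for Per3/Per2, 0.54 to 0.66 for Npas2/Clock, 0.13 to 0.23 for Per1/Per2, 0.16 to 0.23 for Arntl/Nr1d1 and -0.17 to -0.071 for Nr1d1/Nr1d2. For Cry1/Cry2 it gave -0.0084 to 0.074, with a negative value without B6 replicate 2 or 3. Replicate numbers showed no clear pairing of B6 with D2 libraries. The correlation of deviations was 0.135, 0.0657 and -0.0296 for the 3 same-numbered pairs, and not every library correlated best with its own number. With 3 libraries a strain these values cannot exclude a batch shared by number. With the replicate number as a block the same 5 members were called, of 5093 genes in all. The causes of the lost and gained calls were not tested. Differences of about 1.1-fold were mostly missed in the simulated data (7 of 50 genes called), which held fewer changes than were called here.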
